A study of Mus musculus with 816 samples.

Results

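The mRNA levels of 10 genes of prostaglandin and leukotriene metabolism were examined in mouse microglia. The genes were Ptgs1, Ptgs2, Ptges, Hpgds, Tbxas1, Ptger2, Ptger4, Alox5, Alox5ap and Ltc4s. They were chosen by name, for their place in the pathway, with earlier results of these data known. All 10 were found among the 45581 genes listed for cultured microglia and among the 29858 listed for microglia taken from mice. RNA was sequenced from the 3′ end of transcripts in 784 primary neonatal microglia cultures, bought as isolated cells and grown in 96-well plates, and in CD11b bead-selected microglia from 32 C57BL/6 mice. Each culture received 1 stimulus or mixture for 4, 24 or 72 h, or nothing, which gave 98 groups on 10 plates. The stimuli that carry most of the results were lipopolysaccharide (LPS, a bacterial ligand of TLR4) at 0.0001 µg/µl (LPS_hi) or 0.00001 µg/µl (LPS_lo), the TLR1/2 stimulus P3C at 0.001 µg/µl, prostaglandin E2 (PGE2) at 0.001 µg/µl, TNFa at 0.000004 µg/µl and IL4 at 0.00005 µg/µl, alone or mixed. The label of a mixture gives 1 dose. Female mice aged 2 months received 2 mg/kg LPS or its PBS vehicle into the peritoneum 4 h before the cells were taken (4 mice each), and males of 2 months (n = 11) and 22 months (n = 13), labelled Naive, were compared for age. The table's own headers name a vehicle for 4 mice of each age and for all 8 mice of the LPS experiment.

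Prostaglandins are made from arachidonic acid, which phospholipases free from membranes. The cyclooxygenases encoded by Ptgs1 and Ptgs2 turn it into prostaglandin H2, from which terminal synthases make PGE2 (Ptges), PGD2 (Hpgds) or thromboxane (Tbxas1). The lipoxygenase Alox5, with its activating protein Alox5ap, leads instead to leukotriene A4, which Ltc4s joins to glutathione. Ptger2 and Ptger4 encode the EP2 and EP4 receptors of PGE2, both of which raise cyclic AMP. Ptgs2 and Ptges are classical genes of the macrophage response to bacterial products, and Ptgs1 is the constitutive cyclooxygenase.

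The proximal promoters of the 3 genes that carried the largest responses to LPS are shown because these genes moved together or against each other. Ptgs2 lies at chr1:150100031-150108227 (+ strand), Ptges at chr2:30889471-30929863 (− strand) and Ptgs1 at chr2:36230426-36252272 (+ strand) of GRCm38. The sequences are from RefSeq (GRCm38.p6), 250 bases before to 30 bases after the annotated start, 5′ to 3′ on the gene's strand. For Ptges the RefSeq start lies inside the span given above, which is from GENCODE. Capitals mark matches on either strand to the letters of an NF-kB site (GGGNNNNNCC), a CRE core (TGACGT) or a C/EBP site (TTGCNNAA).
Ptgs2, chr1:150099781-150100060 (+): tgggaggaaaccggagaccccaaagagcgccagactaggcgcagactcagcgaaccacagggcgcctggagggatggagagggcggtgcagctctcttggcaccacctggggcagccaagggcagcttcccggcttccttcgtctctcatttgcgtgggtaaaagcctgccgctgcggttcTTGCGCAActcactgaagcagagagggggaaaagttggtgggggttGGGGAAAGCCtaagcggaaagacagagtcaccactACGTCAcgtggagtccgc
Ptges, chr2:30903268-30903547 (−): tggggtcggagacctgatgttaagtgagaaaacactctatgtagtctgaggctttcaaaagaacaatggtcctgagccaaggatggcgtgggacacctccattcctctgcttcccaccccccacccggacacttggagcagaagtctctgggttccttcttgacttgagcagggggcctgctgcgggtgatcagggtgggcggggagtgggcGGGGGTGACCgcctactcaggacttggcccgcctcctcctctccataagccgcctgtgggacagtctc
Ptgs1, chr2:36230176-36230455 (+): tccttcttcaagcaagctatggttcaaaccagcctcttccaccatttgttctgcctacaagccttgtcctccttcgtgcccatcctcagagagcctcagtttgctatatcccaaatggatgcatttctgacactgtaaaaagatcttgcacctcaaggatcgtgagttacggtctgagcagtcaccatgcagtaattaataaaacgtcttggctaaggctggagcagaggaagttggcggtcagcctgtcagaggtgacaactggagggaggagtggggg

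The Ptgs2 window held all 3 kinds of letters, with the C/EBP letters at bases −69 to −62 from the start, the NF-kB letters at −23 to −14, and the CRE core, read on the opposite strand, at 13 to 18. An E-box (CACGTG) at 17 to 22 overlapped the CRE core. The Ptges window held the NF-kB letters at −38 to −29 and the letters of a STAT6 site (TTCNNNNGAA) at −197 to −188. The Ptgs1 window held none of the letters searched, which also took in TATAAA and TTTCNNTTTC. Of 32851 promoter windows of the same length, 48.9% held the NF-kB letters, 7.26% the CRE core, 10.4% the C/EBP letters, 6.79% the E-box, 13.1% TATAAA, 3.28% TTTCNNTTTC and 6.50% the STAT6 letters. Of the 9 members found in the RefSeq promoter table, 4 held the NF-kB letters (Ptgs2, Ptges, Ptger4 and Alox5). The 9 do not include Alox5ap. A match to letters is a description of the window and not a binding site.

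The values are reads per 1000000 mapped reads (CPM). With M standing for 1000000 reads, cultures had between 1.00 and 38.2 M (median 4.67 M) and mice between 2.36 and 7.78 M (median 4.08 M), so that a single read was worth at most 0.997 CPM in a culture. Of 8 microglia markers, 7 had a median over 5 CPM in the cultures, P2ry12 being the exception, and all 8 did in the mice. No mast cell marker (0 of 4) passed that level in either table, and of 5 neutrophil markers none did in the cultures and all 5 did in the mice. Whether cultures of a group were separate preparations is not given in the labels, so p-values measure the spread between these cultures, which may be technical. In such bulk samples, fewer cells of a type and less RNA per cell cannot be told apart.

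Across the 97 culture groups with at least 2 cultures, Alox5ap, Hpgds and Tbxas1 were the members detected most widely, over 5 CPM in 784, 776 and 766 cultures. Ptger4 passed 5 CPM in 701 cultures, Ptger2 in 596, Ptgs1 in 582, Ptges in 539, Ltc4s in 452 and Alox5 in 375. Ptgs2 passed it in only 221. The group medians of Ptgs2 ran from 0 to 176 CPM and those of Ptges from 0 to 782 CPM, whereas those of Ptger4 ran from 3.60 to 75.0 CPM and those of Tbxas1 from 6.32 to 92.4 CPM.

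The first question was how the pathway responded to a bacterial product. After 24 h of LPS_hi, Ptgs2 and Ptges rose steeply, Ptgs1 fell steeply, and all 3 leukotriene genes fell together with Hpgds and Tbxas1. Of the 10 members, 8 passed the test, 2 higher and 6 lower, while 16.2% of the 16942 genes tested did. The call needed an adjusted p under 0.05 and a difference of at least 1 on the log2(CPM + 1) scale, on which every log2 difference here is given. The median difference of the 10 members was −1.49, and that of all genes tested −0.14.

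Ptgs2 spanned 0 to 9.15 CPM with a median of 1.08 in the 40 untreated cultures and 23 to 268 CPM with a median of 53.4 in the 18 LPS_hi cultures. The ranges did not overlap, and the log2 difference was 4.73 (SE 0.28), 26.5-fold, adjusted p = 4.34e-51. Ptges, the inducible PGE2 synthase, spanned 0 to 29.6 CPM (median 12.5) in untreated cultures and 271 to 1466 CPM (median 529) under LPS_hi. It too had no overlap, with a log2 difference of 5.47 (SE 0.29), 44.4-fold, adjusted p = 5.41e-63. Ptgs1 went the other way, from 4.18 to 71.1 CPM (median 38.7) without a stimulus to 0.140 to 6.25 CPM (median 1.46) under LPS_hi. It was 12.1-fold lower (log2 difference −3.60, SE 0.27, adjusted p = 9.90e-34), and 16 of the 18 LPS_hi cultures lay below every untreated culture.

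The other terminal synthases fell by less. Hpgds (chr6:65117293-65144908, − strand), the PGD2 synthase of blood-derived cells, had 41.5 to 217 CPM (median 64.7) in untreated and 8.47 to 46.2 CPM (median 22.3) in LPS_hi cultures, a log2 difference of −1.54 (SE 0.21, adjusted p = 1.44e-11). In 16 of the 18 cultures it lay below the lowest untreated culture. Tbxas1 (chr6:38875404-39084585, + strand), the thromboxane synthase, had 11.5 to 76.0 CPM (median 47.3) and 4.95 to 33.3 CPM (median 14.7), a log2 difference of −1.44 (SE 0.21, adjusted p = 1.63e-10). Its ranges overlapped. Tbxas1 overlaps Hipk2 on the opposite strand, so its reads are less certain.

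The leukotriene branch was lower throughout at this time. Alox5ap (chr5:149264767-149288153, + strand) had 114 to 341 CPM (median 211) in untreated cultures and 26.4 to 105 CPM (median 55.9) under LPS_hi, with no overlap and a log2 difference of −1.99 (SE 0.18, adjusted p = 2.67e-25). Alox5 (chr6:116410077-116461178, − strand) went from 0 to 44.2 CPM (median 10.4) to 0 to 1.80 CPM (median 0.438), a log2 difference of −2.63 (SE 0.35, adjusted p = 3.45e-12). Ltc4s (chr11:50236461-50238616, − strand) went from 0 to 40.5 CPM (median 12.5) to 0 to 5.25 CPM (median 0.992), a log2 difference of −2.76 (SE 0.34, adjusted p = 8.58e-14). The ranges of Alox5 and Ltc4s overlapped.

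Neither PGE2 receptor passed the test. Ptger2 (chr14:44988195-45003820, + strand) had 0 to 27.9 CPM (median 8.70) in untreated and 1.77 to 27.3 CPM (median 12.8) in LPS_hi cultures, a log2 difference of 0.28 with adjusted p = 0.635. Ptger4 (chr15:5206661-5244187, − strand) had 9.10 to 83.0 CPM (median 32.1) and 9.88 to 36.4 CPM (median 14.8), a log2 difference of −0.76 (SE 0.34) with adjusted p = 0.0791. Ptger4 overlaps Ttc33 on the opposite strand. The summed level of the 8 microglia markers was also lower under LPS_hi, at 884 to 2831 CPM (median 1473) compared with 3581 to 9234 CPM (median 5816), and its part in these results was not tested. Over all cultures the median was 2585 CPM for Csf1r alone and 3908 CPM for the sum, so the sum mostly reflects that gene.

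The lower LPS dose and P3C were each compared with the same untreated cultures at 24 h. For LPS_lo (n = 7), 8 members passed, against 15.1% of all genes. They were Ptgs2 and Ptges higher and Ptgs1, Alox5, Alox5ap, Ltc4s, Hpgds and Tbxas1 lower, the 8 members called under LPS_hi. Ptgs2 had 5.66 to 101 CPM (median 22.4), a log2 difference of 3.25, and Ptges had 195 to 520 CPM (median 273), a log2 difference of 4.65 with no overlap. Ptgs1 had 0 to 6.13 CPM (median 0.163), a log2 difference of −4.20. For P3C (n = 6), 9 members passed, 2 higher and 7 lower, against 20.2% of all genes. Ptges had 107 to 667 CPM (median 387) with no overlap and a log2 difference of 4.88, and Ptgs2 had 2.82 to 98.7 CPM (median 34.7) and a log2 difference of 3.85.

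Ptger4 was the member called under P3C and not under LPS_hi or LPS_lo, at 0.653 to 25.3 CPM (median 10.4), a log2 difference of −2.02 (adjusted p = 0.00132). Whether the stimuli differed in this was not tested. Alox5ap had 76.5 to 130 CPM (median 98.0) under P3C, a log2 difference of −1.09 (adjusted p = 7.95e-04), which shrank to −0.55 (adjusted p = 0.109) once each culture was centred on its own median over genes. The summed microglia markers were 1228 to 2865 CPM (median 1571) under LPS_lo and 1967 to 3636 CPM (median 3218) under P3C, again below most untreated cultures, and their part was not tested.

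The response to LPS_hi was also measured earlier, at 4 h, and later, at 72 h. No untreated culture was taken at 4 h, so 4 h of LPS_hi (n = 7) was compared with 14 cultures given the chemokines CCL2 or CCL7 for 4 h. At 4 h 6 members passed, 2 higher and 4 lower, against 25.5% of all genes. Ptgs2 had 126 to 218 CPM (median 176), the highest group median of any group, and 0 to 4.46 CPM (median 2.04) with the chemokines. That was 64.0-fold (SE 0.46 on the log2 scale, adjusted p = 1.60e-32) with no overlap.

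Ptges was at 101 to 390 CPM (median 166) after 4 h, against 3.85 to 31.2 CPM (median 12.4), a log2 difference of 3.69 (adjusted p = 5.72e-13) with no overlap. Ptger2, unlike at 24 h, was called at 4 h, with 0 to 9.10 CPM (median 1.42) against 1.98 to 52.7 CPM (median 13.4), a log2 difference of −2.50 (SE 0.58, adjusted p = 2.32e-04). Hpgds had 3.16 to 39.9 CPM (median 20.1) against 28.8 to 97.7 CPM (median 61.4), a log2 difference of −1.91. The lower calls of Alox5ap (log2 difference −1.15) and Ptgs1 (−1.19) were lost once the cultures were centred, at −0.51 (adjusted p = 0.165) and −0.54 (adjusted p = 0.369). Against the untreated cultures of 24 h, which differ in time, Ptgs2 was at 6.32, Ptges at 3.93 and Ptger2 at −2.09, all called, Ptgs1 was called at −1.08 and Alox5ap, at −0.86, was not.

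At 72 h, 6 members passed for LPS_hi (n = 13) against untreated cultures (n = 25), 2 higher and 4 lower, against 16% of all genes. Ptgs2 had 3.01 to 184 CPM (median 41.7) and 0 to 14.2 CPM (median 0.240) untreated, a log2 difference of 4.52 (SE 0.34, adjusted p = 9.66e-34), and 9 of the 13 cultures lay above every untreated culture. Ptges had 2.53 to 626 CPM (median 188) and 0.0695 to 32.4 CPM (median 3.94), a log2 difference of 4.72, with 12 of 13 cultures above. Ptgs1 remained low at 0 to 7.03 CPM (median 0.371) against 0.689 to 52.7 CPM (median 19.9), a log2 difference of −3.18 (adjusted p = 5.52e-19). Ltc4s, Alox5 and Hpgds were called lower by −1.73, −1.39 and −1.39.

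Alox5ap was the member whose LPS_hi response differed between the times. At 72 h it had 72.9 to 390 CPM (median 192) against 98.1 to 626 CPM (median 352) untreated, a log2 difference of −0.52 with adjusted p = 0.0617, and the difference between its 72 h and 24 h responses was 1.47 (SE 0.28, adjusted p = 1.75e-05). It was 1 of 10 members called in that test, against 5.14% of all genes. With the plate in the model Alox5 (1.71, adjusted p = 0.0266) and Tbxas1 (1.07, adjusted p = 0.00530) joined it. Untreated cultures themselves differed between 72 and 24 h in 4 members (Ptges −1.21, Ptger4 −1.24, Alox5 −1.52 and Ltc4s −1.75), against 7.32% of all genes. None of the 4 was called with plate or library pool in the model, where standard errors rose from at most 0.322 to at most 1.12 and 1.15. The untreated cultures of 24 h and of 72 h shared no plate, so they alone cannot tell time and plate apart.

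**Figure D1:**
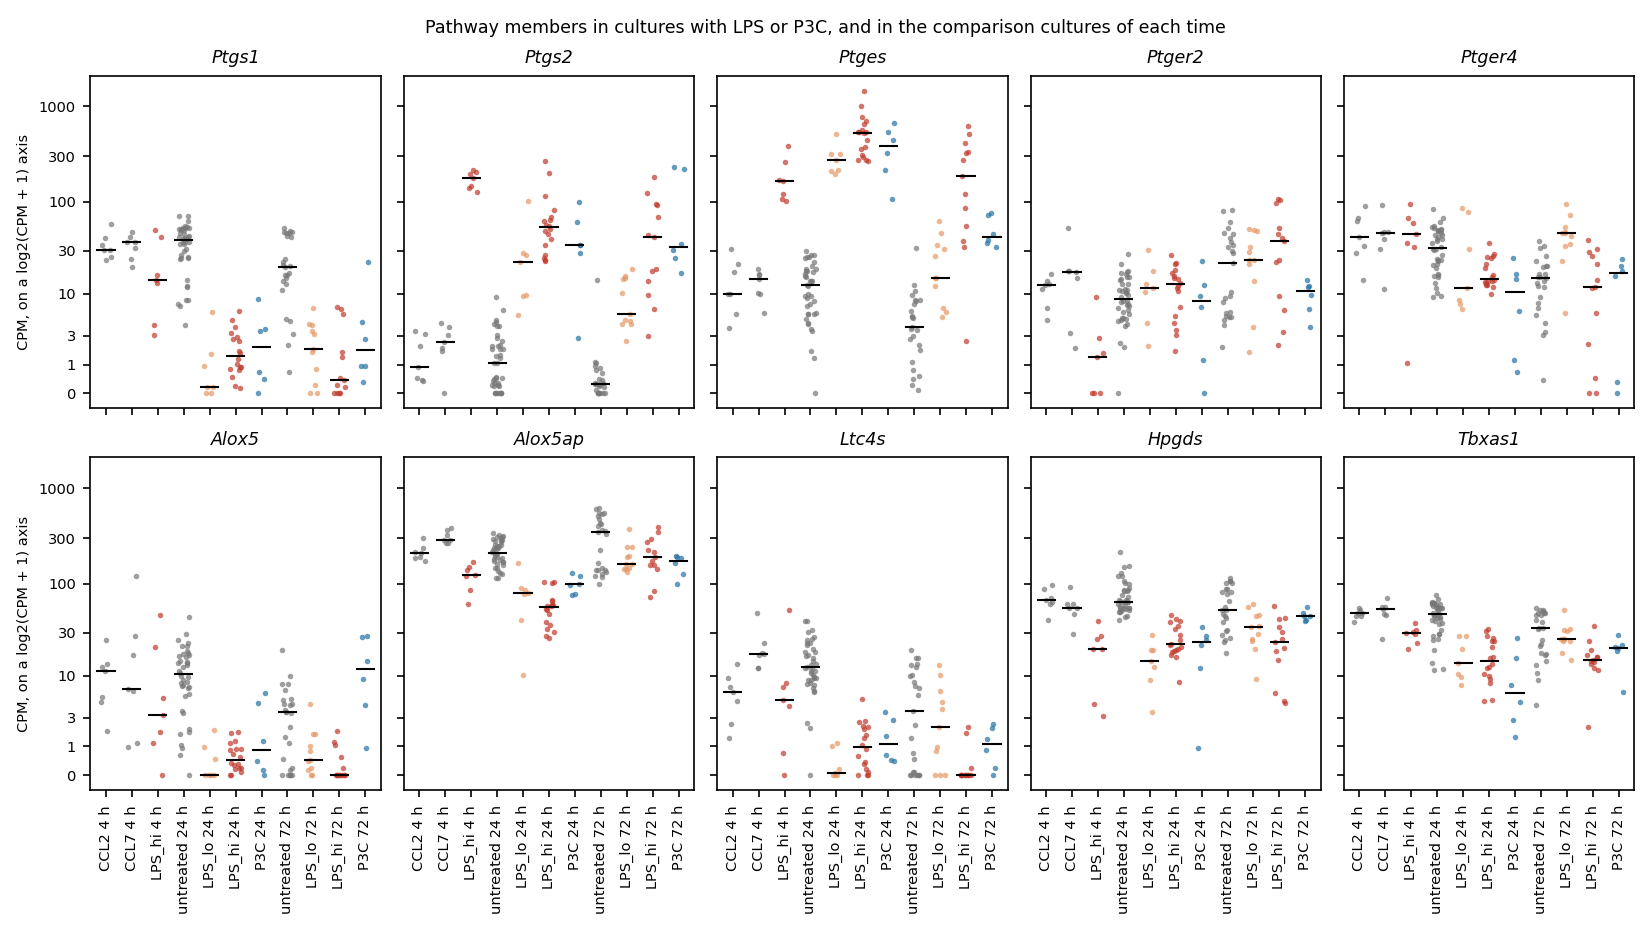
Level of each of the 10 members on a log2(CPM + 1) axis, 1 panel a gene, in cultures given CCL2, CCL7 or LPS_hi for 4 h and in untreated, LPS_lo, LPS_hi and P3C cultures of 24 and 72 h, with a point for each culture and a bar at the group median. Ptgs2 and Ptges stood clear of the untreated cultures at 24 h under LPS_hi (medians 53.4 and 529 CPM against 1.08 and 12.5), Ptgs1 dropped to a median of 1.46 CPM, and Ptger2 showed no such separation.

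Over the whole set of stimuli given without added LPS, each was compared with the untreated cultures of its time, which the comparisons share. Of 700 pairs of a member and a stimulus, 132 were called (50 higher and 82 lower), or 18.9%, against 4.68% over all genes. At least 1 member was called in 43 of the 70 stimuli and none in 27. With the plate in the model 115 of the calls remained. Ptgs2 was called higher in 12 stimuli and lower in 0, its untreated level being close to 0. Ptges was called higher in 14 and lower in 6, Ptgs1 higher in 6 and lower in 20, Hpgds higher in 1 and lower in 12, and Alox5ap higher in 1 and lower in 9.

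Ptges rose under stimuli that called Ptgs2 and under others that did not. After 24 h of TNFa, Ptges had 70.6 to 211 CPM (median 100), a log2 difference of 3.25 (adjusted p = 9.19e-12) with no overlap, while Ptgs2 had 0 to 1.28 CPM (median 0.264) and was not called. The stimulus labelled IC at 0.2 µg/µl gave the same picture at 24 h, with Ptges at 35.7 to 457 CPM (median 103), a log2 difference of 3.17 with no overlap, and Ptgs2 not called. TNFa with IFNg at 72 h called both, Ptgs2 at 13.5 to 51.3 CPM (median 25, log2 difference 4.24) and Ptges at 8.43 to 416 CPM (median 260, log2 difference 5.13). P3C at 72 h called both as well, with log2 differences of 5.26 for Ptgs2 and 3.34 for Ptges.

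Ptgs1 rose under type 2 cytokines and fell under interferons. IL4 for 24 h (n = 11) called 3 members, against 2.74% of all genes. Ptgs1 had 54.0 to 149 CPM (median 92.3), a log2 difference of 1.57 (SE 0.33, adjusted p = 1.80e-04), and 7 of 11 cultures lay above every untreated culture. Tbxas1 was at 63.4 to 102 CPM (median 92.4), a log2 difference of 1.06 (SE 0.25, adjusted p = 0.00160), with 10 of 11 cultures above. Ptges was at 0 to 8.45 CPM (median 4.41), a log2 difference of −1.19 (SE 0.34, adjusted p = 0.0180). With the plate in the model Tbxas1 (0.64, adjusted p = 0.133) and Ptges (−0.34, adjusted p = 0.983) were no longer called.

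IL13 for 72 h gave the highest group median of Ptgs1, with 71.5 to 196 CPM (median 102) and a log2 difference of 2.59 with no overlap. GMCSF for 72 h called Ptgs1 (2.19), Alox5 (1.72) and Tbxas1 (1.22) higher. The interferons called Ptgs1 lower at 24 h, by −3.35 for IFNa (0 to 6.58 CPM, median 2.44), −1.98 for IFNb and −1.31 for IFNg. IFNg also called Ltc4s lower, by −2.77.

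The leukotriene genes and the receptors had their own few stimuli. Valproic acid at 1000 µM for 24 h gave the highest group median of Alox5, at 24.0 to 137 CPM (median 97.6, log2 difference 3.07), and of Ltc4s, at 28.5 to 78.0 CPM (median 57.1, log2 difference 2.07), although Ltc4s was not called with the plate in the model (1.98, adjusted p = 0.238). HDL at 2 µg/µl for 24 h was the single stimulus that called Alox5ap higher against the untreated cultures, at 337 to 632 CPM (median 472, log2 difference 1.12). IL10 for 72 h left Ptger2 at 0 to 9.37 CPM (median 1.63), a log2 difference of −2.76, and called Hpgds higher at 64.2 to 192 CPM (median 128, log2 difference 1.10). Ptger2 was called higher in 0 and lower in 7 stimuli. Ptger4 was called higher once, after 72 h of LPS_lo (5.94 to 95.7 CPM, median 46.0, log2 difference 1.60), and lower in 3.

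**Figure D2:**
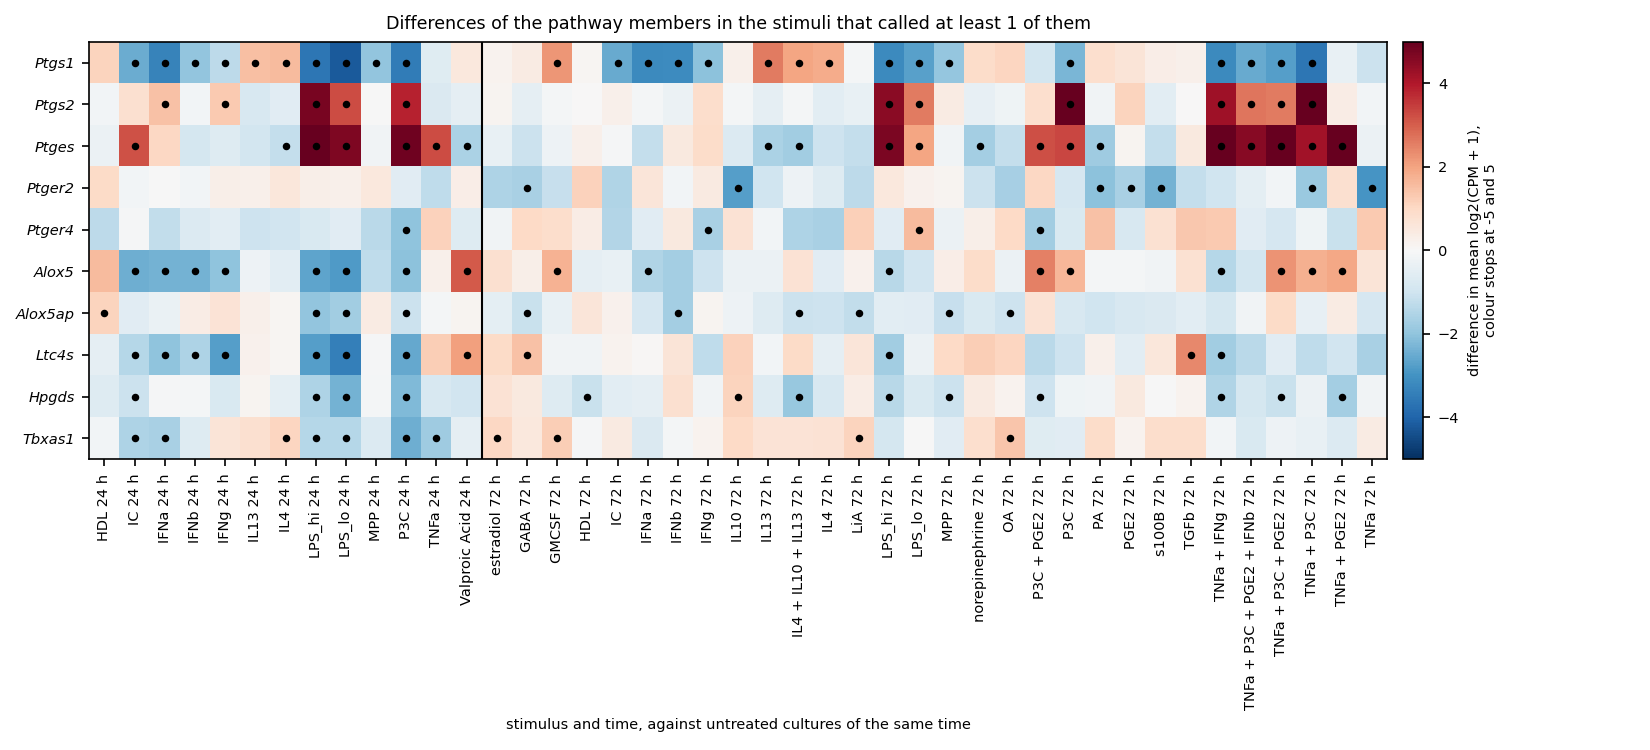
Heat map of the log2 difference of each of the 10 members (vertical) from the untreated cultures of the same time in the 43 stimuli with at least 1 called member (horizontal), a dot marking a call and a line dividing 24 h from 72 h. Ptgs2 has only higher calls (12) and Ptgs1 mostly lower ones (20 of 26).

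PGE2 is the product of this pathway and the ligand of Ptger2 and Ptger4, and the study gave it alone and in mixtures. Alone for 24 h (n = 8), it called 0 members by limma and 0 by the exact rank-sum test, against 0.336% of all genes, with 3 members at an unadjusted p under 0.05. Alox5ap had 259 to 421 CPM (median 341), a log2 difference of 0.65 with adjusted p = 0.292. The rank-sum test gave it an adjusted p of 0.0179, and its difference was under the minimum fold. Ptges had 2.01 to 9.72 CPM (median 5.28; −0.93, adjusted p = 0.410), and Ptgs1 29.4 to 81.6 CPM (median 64.7; 0.84, adjusted p = 0.460).

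After 72 h of PGE2 (n = 8), 1 member was called, against 6.49% of all genes. Ptger2 had 0 to 45.3 CPM (median 7.81) and 2.07 to 82.1 CPM (median 22.0) in the 25 untreated cultures, a log2 difference of −1.62 (SE 0.51, adjusted p = 0.0218). The direction was opposite on the 2 plates that held both groups. On the first, PGE2 cultures had 7.25 to 45.3 CPM (median 10.9, n = 4) and untreated ones 4.20 to 9.45 CPM (median 5.66, n = 10), and on the second 0 to 16.1 CPM (median 0.292, n = 4) and 29.8 to 80.6 CPM (median 37.2, n = 5).

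Ptger2 was not called with the plate in the model (−1.31, adjusted p = 0.0762), nor on the plates of both groups alone (−1.16, adjusted p = 0.477). Alox5ap split the same way between these plates. It had 156 to 491 CPM (median 167) against 98.1 to 167 CPM (median 136) on the first and 90.1 to 131 CPM (median 115) against 227 to 551 CPM (median 424) on the second. Over all 72 h cultures its log2 difference was −0.80 (adjusted p = 0.0218), under the minimum fold.

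Added to P3C, PGE2 went with a far lower Ptgs2. P3C with PGE2 (n = 7) against P3C (n = 6) at 72 h called 2 members, against 4.21% of all genes. Ptgs2 had 17.3 to 232 CPM (median 32.8) with P3C and 0 to 6.92 CPM (median 1.96) with both, 21.4-fold lower (log2 difference −4.42, SE 0.55, adjusted p = 4.94e-12). The groups did not overlap on either plate. P3C cultures had 17.3 to 35.3 CPM on the first (n = 4) and 219 to 232 CPM on the second (n = 2). Cultures with both had 0.601 to 3.55 CPM (n = 3) and 0 to 6.92 CPM (n = 4).

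Alox5ap rose in the same comparison, from 99.6 to 195 CPM (median 175) with P3C to 230 to 739 CPM (median 443) with both. The log2 difference was 1.53 (SE 0.35, adjusted p = 9.72e-04) with no overlap. Ptges, called higher than in untreated cultures under both stimuli, was at 33.2 to 75.7 CPM (median 42.2) with P3C and 4.40 to 135 CPM (median 51.5) with both, and did not pass the test between them (−0.12, adjusted p = 0.996). Ptger2 had 3.95 to 14.2 CPM (median 10.8) and 8.48 to 112 CPM (median 45.4), a log2 difference of 1.88 with adjusted p = 0.108, and 2.16 with adjusted p = 0.0279 when the plate was in the model. The exact rank-sum test called 0 of the 10 members and 0 of all genes in this comparison.

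The effect of PGE2 differed with and without P3C for 3 members, against 3.39% of all genes. The difference of the effects was −5.54 (SE 0.68, adjusted p = 4.68e-12) for Ptgs2, 3.50 (SE 0.87, adjusted p = 0.00551) for Ptger2 and 2.33 (SE 0.43, adjusted p = 2.48e-05) for Alox5ap. PGE2 alone had Ptgs2 at 0.173 to 16.4 CPM (median 1.35), which was not called (1.12, adjusted p = 0.0515). Untreated cultures of 72 h had Ptgs2 at a median of 0.240 CPM, with 7 of 25 at 0. A fall with PGE2 alone could hardly be seen from there, so the test cannot tell whether a lowering of Ptgs2 by PGE2 depends on P3C. The values for Ptger2 and Alox5ap rest on the PGE2 cultures whose direction differed between plates.

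With TNFa and P3C together, PGE2 again went with lower Ptgs2 and higher Alox5ap. The comparison of 7 cultures with 7 called those 2 members, against 3.72% of all genes. Ptgs2 had 22.7 to 220 CPM (median 90.7) without and 0.763 to 35.7 CPM (median 5.94) with PGE2, a log2 difference of −3.00 (SE 0.53, adjusted p = 7.77e-06), and 5 of 7 cultures lay below. Within each plate the groups did not overlap, at 22.7 to 36 CPM against 0.763 to 5.94 CPM and at 90.7 to 220 CPM against 15.2 to 35.7 CPM.

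Alox5ap had 135 to 309 CPM (median 191) without and 293 to 773 CPM (median 557) with PGE2, a log2 difference of 1.34 (SE 0.33, adjusted p = 0.00394). Ptges had 11.3 to 156 CPM (median 115) and 71.8 to 265 CPM (median 218) and did not pass the test (1.09, adjusted p = 0.283). Summed neutrophil markers were 0 to 31.2 CPM without and 37.6 to 101 CPM with PGE2, and their part was not tested.

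With TNFa alone as partner, the member that moved most was Ptges. It had 1.01, 0.505 and 19.5 CPM in the 3 TNFa cultures of 72 h and 524, 496, 625, 992, 773, 803, 1150 and 791 CPM in the 8 cultures with TNFa and PGE2. The ranges were far apart, with a 187-fold difference (log2 difference 7.55, SE 0.68, adjusted p = 2.07e-23). PGE2 alone for 72 h had Ptges at 0.217 to 10.0 CPM (median 6.33) and did not call it, and whether the mixture exceeded the sum of its parts was not tested. Ptgs2 had 0, 0.505 and 0.424 CPM with TNFa and 0 to 2.45 CPM (median 1.26) with both, and was not called (0.51, adjusted p = 0.662).

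In all 5 members were called in that comparison, against 26.7% of all genes. Besides Ptges they were Ptger2 (3.76, adjusted p = 1.57e-04), Alox5ap (1.26), Ptger4 (−2.44) and Hpgds (−1.51). Ptges was the member still called on the plate of the TNFa cultures alone. The TNFa cultures lay on 1 plate and varied widely, with Ptger4 at 4.05, 269 and 24.2 CPM and Alox5 at 0, 148 and 0 CPM. Against untreated cultures of 72 h, TNFa called 27.7% of all genes and TNFa with PGE2 8.51%. Markers of other cells also differed between the groups. Summed neuron markers were 0 to 184 CPM (median 10.6) with TNFa, the upper value being the highest of all cultures, and 0 to 1.94 CPM (median 0.203) with both. Those of fibroblasts were 9.33 to 93.8 CPM and 0.672 to 14.7 CPM, and those of neutrophils 0 to 1.70 CPM and 15.1 to 202 CPM. With TNFa and PGE2, 1 of the 5 neutrophil markers had a median over 5 CPM and 3 were at 0 in all 8 cultures. The part of these lists in the 5 calls was not tested. Without the TNFa culture at 269 CPM the log2 difference of Ptger4 was −0.91 (adjusted p = 0.576) and Alox5 was called at 3.69 (adjusted p = 0.00143). Without the culture with Ptges at 19.5 CPM, Alox5ap (0.24, adjusted p = 0.819) and Hpgds (−0.42, adjusted p = 0.688) were not called.

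**Figure D3:**
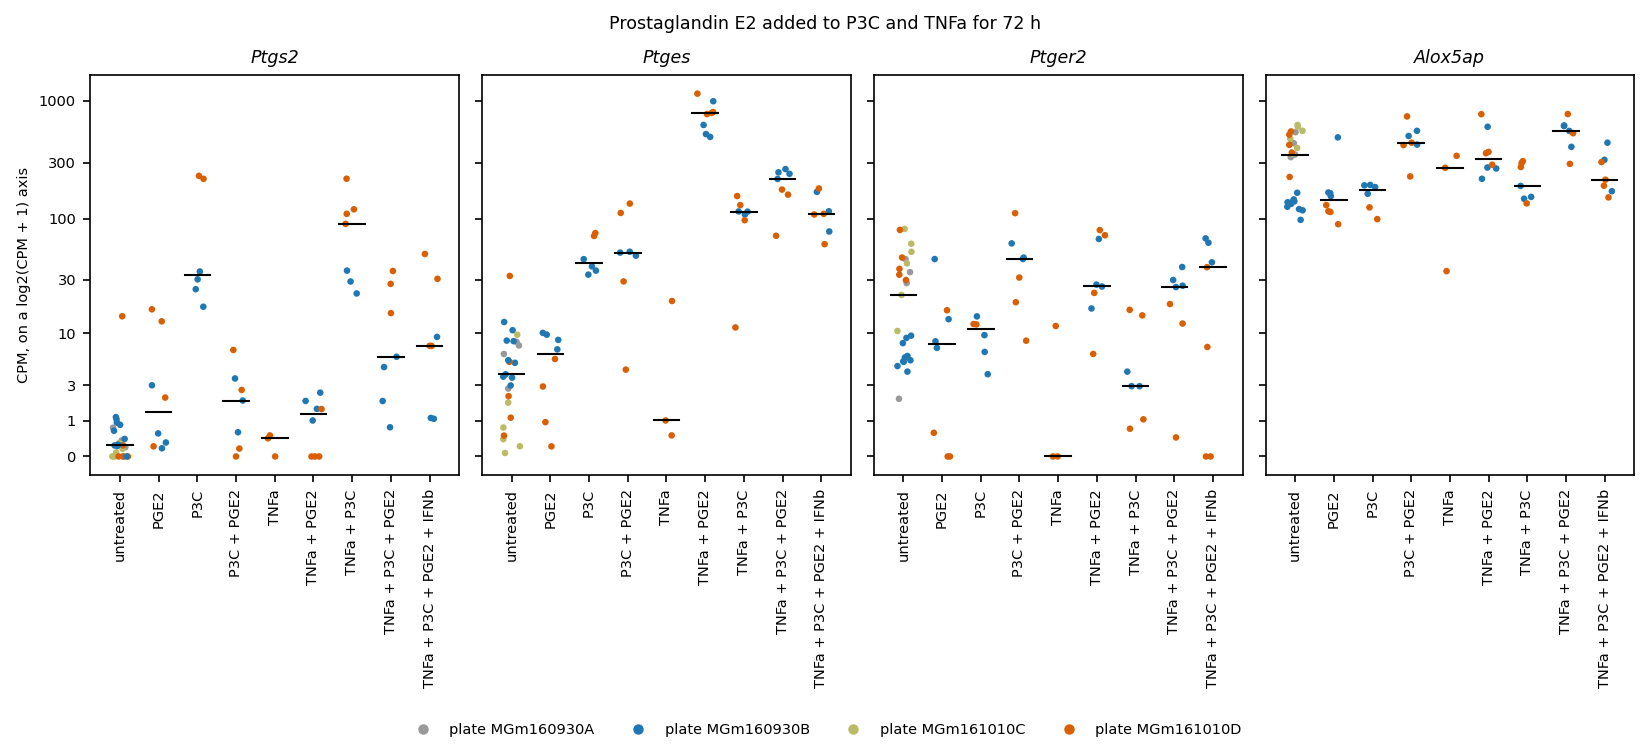
Levels of Ptgs2, Ptges, Ptger2 and Alox5ap on a log2(CPM + 1) axis in 9 groups of 72 h cultures, with a point for each culture coloured by plate and a bar at the group median. Ptgs2 falls from a median of 32.8 to 1.96 CPM when PGE2 joins P3C, Ptges is highest with TNFa and PGE2, and the PGE2 cultures split by plate for Ptger2.

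A second set of cultures received LPS with another agent and was compared with LPS alone at the same dose and time. Of 190 pairs of a member and an agent, 15 were called (8 higher and 7 lower), or 7.89%, against 1.16% over all genes, and 9 of the 19 agents had at least 1 call. The comparisons with 1 LPS group share its cultures.

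Ptgs2 was the member that agents moved both ways. With LPS_lo at 72 h (n = 11) it had 2.50 to 19.2 CPM (median 5.71). Adding IFNg raised it to 57.9 to 146 CPM (median 92.8), a log2 difference of 3.37 (adjusted p = 1.70e-09) with no overlap. Adding IL10 (n = 5) left it at 0, 0, 0.259, 0 and 0.550 CPM, a log2 difference of −2.92 (adjusted p = 4.59e-05) with no overlap. TGFb also called it lower (−1.96). At 4 h, nicotine (labelled 1000 µM where given alone) with LPS_hi left Ptgs2 at 17.5 to 42.3 CPM (median 27.6) against 126 to 218 CPM (median 176). The log2 difference was −2.56 (SE 0.51, adjusted p = 4.14e-04) with no overlap. Ptges had 176 to 424 CPM (median 235) with nicotine and was not called (0.55, adjusted p = 0.856).

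Ptgs1, nearly silent under LPS_lo at 72 h (0 to 6.76 CPM, median 1.89), was higher with IL4, at 13.3, 25.7, 44.2, 32.7 and 72.9 CPM. The log2 difference was 3.61 (adjusted p = 4.31e-09) with no overlap. The mixture of IL4, IL10 and IL13 gave 25.3, 20.4, 18.5, 47.1 and 105 CPM and a log2 difference of 3.69, and IL13 (2.25) and TGFb (1.97) were called too, IL13 not with the plate in the model (adjusted p = 0.126). IL4 lowered Ptges, from 5.32 to 63.0 CPM (median 15.2) to 4.96, 2.34, 0, 6.53 and 0 CPM, a log2 difference of −2.80, and the mixture did so by −2.36.

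Ptger2 was higher at 4 h with both norepinephrine and nicotine given with LPS_hi. Norepinephrine (labelled 1 µM where given alone) gave 0 to 41.2 CPM (median 16.9) against 0 to 9.10 CPM (median 1.42), a log2 difference of 2.59 (adjusted p = 0.00977). Nicotine gave 6.50 to 19.8 CPM (median 10.0), a log2 difference of 2.40 (adjusted p = 0.0292), which was not called once the cultures were centred. Norepinephrine left Ptges at 446 to 777 CPM (median 540) against 101 to 390 CPM (median 166), with no overlap, and a log2 difference of 1.74 that missed the threshold (adjusted p = 0.0543) and passed it with the plate in the model (adjusted p = 0.0181). In the leukotriene branch, resveratrol with LPS_lo at 24 h gave Ltc4s at 0 to 36.9 CPM (median 9.56) against 0 to 1.18 CPM (median 0.0528), a log2 difference of 2.59 (adjusted p = 0.00910).

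**Figure D4:**
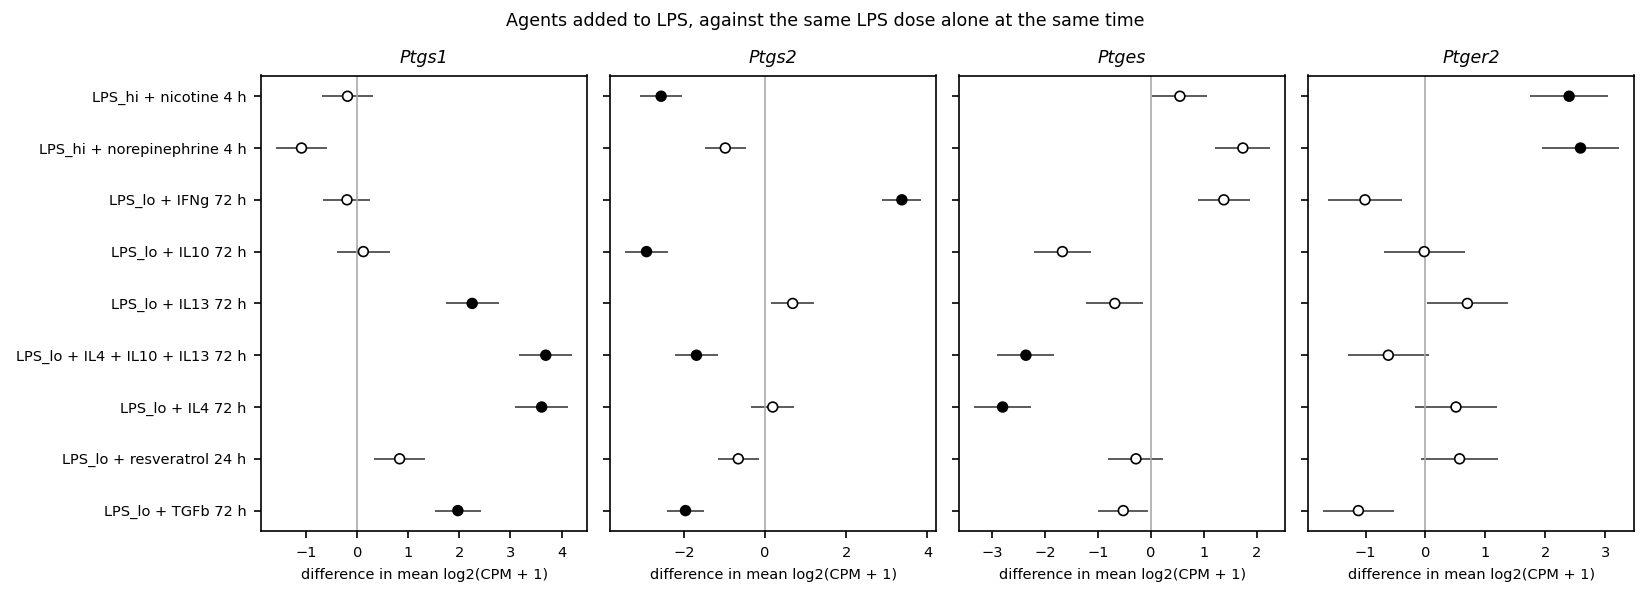
Log2 difference from LPS alone at the same dose and time, with its standard error, of Ptgs1, Ptgs2, Ptges and Ptger2 for the 9 agents with at least 1 called member, filled points marking calls. Ptgs2 lies at 3.37 with IFNg and −2.92 with IL10, and Ptgs1 lies highest with the mixture holding IL4 (3.69) and with IL4 (3.61).

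As a description of how the members ran together, Pearson correlations were taken over the means of the 97 groups on the log2 scale, which share plates and library pools. Ptgs2 and Ptges ran together (r = 0.82), as did Ptgs1 and Tbxas1 (r = 0.75), Alox5 and Ltc4s (r = 0.64) and Alox5 and Alox5ap (r = 0.58). Ptgs1 ran against Ptgs2 (r = −0.62), and Ptges against Tbxas1 (r = −0.69). The genes most like Ptgs2 were Traf1 (0.89), Tnf (0.88) and Nfkbiz (0.87), those most like Ptges were Clec4e (0.93), Sod2 (0.92) and Il1b (0.92), and those most like Ptgs1 were Mrc1 (0.91), Rnase4 (0.88) and Rgs7bp (0.88). The receptors had no close companion, their best being Esd for Ptger2 (0.63) and Umad1 for Ptger4 (0.56). For the remaining members the best were Mef2c for Hpgds (0.85), Ptma for Tbxas1 (0.83), Slc25a23 for Ltc4s (0.81), Ddah2 for Alox5 (0.77) and Man1a2 for Alox5ap (0.72).

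Other genes of eicosanoid metabolism and response, 47 in 6 lists, were read beside the members. Under LPS_hi at 24 h, 34 were tested, of which 1 was called higher and 8 lower, against 16.2% of all genes. Hpgd, which breaks prostaglandins down, had a median of 62.0 CPM in untreated and 1.78 CPM in LPS_hi cultures, a log2 difference of −4.57 (adjusted p = 3.18e-48), and was still at −5.16 after 72 h. The prostacyclin receptor Ptgir was the gene called higher (1.06), from a median of 0.0401 to 1.53 CPM. It was not called with the plate in the model and is named after its value was seen. The lower ones included the lysosomal phospholipase Pla2g15 (−2.20, from a median of 452 to 86.7 CPM) and the microsomal glutathione transferases Mgst3 (−2.58) and Mgst2 (−1.45). P3C called 1 higher and 12 lower (20.2% of all genes), IL4 1 higher and 0 lower (2.74%), and PGE2 at 24 h 0 in either direction (0.336%).

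At 72 h PGE2 called 3 of these 34 genes higher and 0 lower, a share near the 6.49% of all genes. TNFa with PGE2 against TNFa called 12 higher and 5 lower, against 26.7% of all genes, and TNFa, P3C and PGE2 against TNFa and P3C 1 higher and 1 lower, against 3.72%. P3C with PGE2 against P3C called 2 higher and 2 lower, against 4.21%, among them the arachidonate-releasing phospholipase Pla2g4a (−1.83). Of 8 tested genes that respond to cyclic AMP, the signal of both receptors, PGE2 alone called 0 at 24 h (0.336% of all genes) and 4 at 72 h (6.49%), all higher. The 4 were Nr4a1 (2.15, not called with the plate in the model), Pde4b (2.06), Nr4a3 (1.51) and Pde4d (1.35). Added to P3C, PGE2 called 0 of the 8, and added to TNFa and P3C it also called 0. Added to TNFa it called 4 higher (Crem 4.18, Per1 3.27, Pde4b 2.54 and Nr4a2 2.09, the last not with the plate in the model) and 1 lower (Sik1 −2.56), against 26.7% of all genes. The counts for TNFa with PGE2 rest on the 3 widely varying TNFa cultures, in which 27.7% of all genes were called against untreated ones.

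The table of mice was normalized separately from that of cultures, so values from them are set side by side only. At 4 h after LPS, 2 of the 8 members that passed the filter were called at an adjusted p under 0.05, both higher, against 19.8% of 9012 genes. Ptgs2 passed the filter through the LPS mice alone, so this count depends partly on the filter. Without the filter Ptgs2 was called too (5.02, adjusted p = 3.59e-06). Ptgs2 had 0.981, 1.44, 2.57 and 2.03 CPM in the PBS mice and 84.8, 132, 74.3 and 67.3 CPM in the LPS mice. All LPS mice lay far above all PBS mice, a 32.5-fold difference (log2 difference 5.02, SE 0.25, adjusted p = 2.49e-07).

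Ptger4 had 4.12, 3.90, 6.93 and 6.09 CPM in PBS and 104, 150, 143 and 121 CPM in LPS mice, again with no overlap and a 21.1-fold difference (log2 difference 4.40, SE 0.20, adjusted p = 1.75e-07). In cultures at 4 h, by contrast, Ptger4 had 1.05 to 95.5 CPM (median 45.0) under LPS_hi and 11.3 to 92.3 CPM (median 44.5) with the chemokines and was not called (−0.31). The 2 systems were not tested against each other.

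Ptges had 0.589, 0.289, 1.19 and 0.290 CPM in PBS and 1.67, 5.28, 6.86 and 6.09 CPM in LPS mice. The LPS mice lay above the PBS mice, but Ptges did not reach the level needed for testing, and without the filter it was called at 1.83 (SE 0.35, adjusted p = 0.0108). Ptger2 was close to 0, at most 0.791 CPM in PBS and 2.09 CPM in LPS mice. Ptgs1 had 234, 272, 233 and 255 CPM in PBS and 212, 194, 160 and 163 CPM in LPS mice, which did not overlap but missed the threshold (−0.45, SE 0.15, adjusted p = 0.0640).

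The leukotriene genes and the other synthases did not pass the test in these mice, with log2 differences of 0.39 for Alox5, 0.17 for Alox5ap, −0.11 for Ltc4s, −0.37 for Hpgds and −0.19 for Tbxas1. The summed neutrophil markers were 68.4 to 134 CPM in PBS and 154 to 291 CPM in LPS mice, and the summed monocyte markers 17.6 to 34.3 CPM and 20.1 to 48.8 CPM. Their part in the Ptgs2 and Ptger4 values was not tested. Of 20 other eicosanoid genes tested, 1 was called higher and 5 lower, against 19.8% of all genes. The higher one was Cyp4f18, which breaks down leukotriene B4 (1.20). Hpgd was among the lower ones (−1.03, from a median of 73.9 to 34.2 CPM). Of the lower calls, those of Hpgd and Ggt5 were kept once the mice were centred and the others were not.

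Between 22 and 2 months of age, 1 of 7 members tested was called, against 9.67% of 9632 genes. Ptger4 had 1.88 to 8.49 CPM (median 5.77) at 2 months and 5.28 to 19.5 CPM (median 8.83) at 22 months. In 8 of 13 old mice it lay above every young mouse, and the log2 difference was 0.90 (SE 0.20, adjusted p = 0.00422). The libraries fall into 2 series by their numbers, below and above 10000, and within each the difference had the same sign but did not pass the threshold (1.47, adjusted p = 0.174, and 0.61, adjusted p = 0.0824).

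The summed neutrophil markers were 130 to 1100 CPM (median 521) at 2 months and 281 to 3177 CPM (median 1029) at 22 months, and those of monocytes 32.1 to 82.7 CPM (median 53.6) and 48.2 to 266 CPM (median 115). Those of T and B cells were 0.365 to 11.8 CPM (median 2.03) and 4.04 to 42.6 CPM (median 15.4), with 1 of 4 markers over 5 CPM (median) at 22 months. The part of these lists in the Ptger4 value was not tested. Ptgs1 had 356 to 765 CPM (median 429) and 308 to 666 CPM (median 380) and did not pass the test (−0.17, adjusted p = 0.149). Tbxas1 did not pass it either (−0.23, adjusted p = 0.102). Ptgs2 was at most 0.716 CPM at 2 months and 1.57 CPM at 22 months and, like Ptges and Ptger2, was below the level needed for testing. The series differed in level among mice of 2 months, Ptgs1 being 651 ± 87.0 CPM (SD, n = 4) in one and 399 ± 35 CPM (SD, n = 7) in the other, Ltc4s 222 ± 16.7 and 489 ± 39 CPM, and Hpgds 158 ± 20.7 and 98.9 ± 12.7 CPM.

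**Figure D5:**
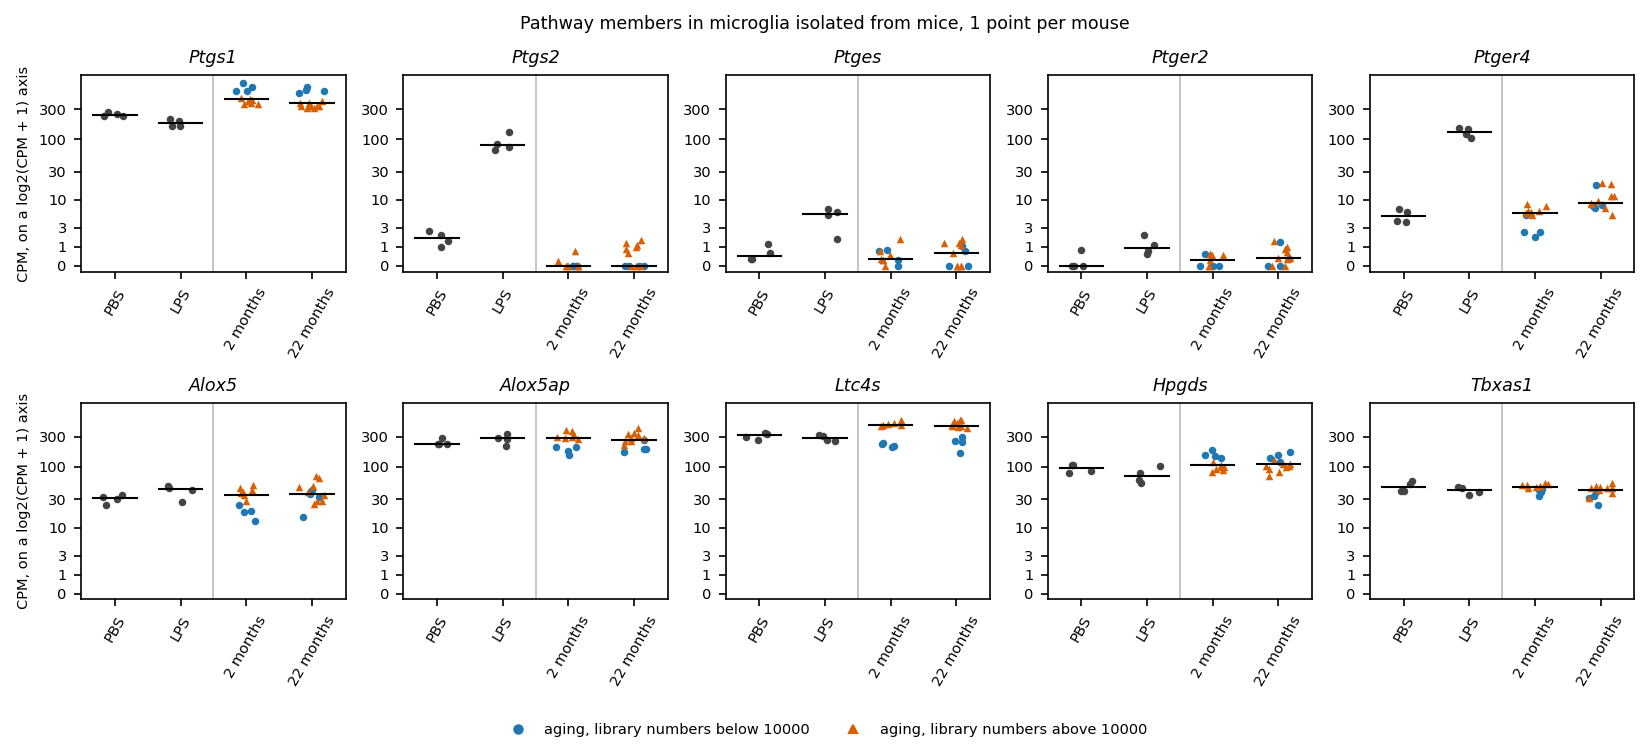
Level of each of the 10 members on a log2(CPM + 1) axis in microglia of PBS and LPS mice (4 each) and of mice aged 2 and 22 months (11 and 13), with a point for each mouse, filled by library number series in the aging mice. Ptgs2 and Ptger4 separate LPS from PBS mice completely (67.3 to 132 and 104 to 150 CPM against 0.981 to 2.57 and 3.90 to 6.93), and Ptgs2 is near 0 at both ages.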

How the data were processed

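Per the labels and the study's methods, 3′-end reads were quantified by the authors with Salmon 0.7.1 against Ensembl release 81 transcripts and summed over the isoforms of each gene. The submitters' processing notes also name the build mm8. The deposited values are CPM (the authors call them TPM): reads per gene per 1000000 mapped reads, with no length correction. Positions come from GENCODE M21 (GRCm38).

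log2(CPM + 1) was fitted with limma 3.58.1 (R 4.3.3) across all genes over 5 CPM in at least 4 samples (11 in the aging mice), with p-values adjusted by Benjamini and Hochberg over all genes of a comparison. All 783 cultures in groups of at least 2 entered 1 fit with 97 groups; 1 culture had no fellow. The aging fit held the library number series as a covariate. Calls needed adjusted p under 0.05 and, in cultures, a log2 difference of at least 1. Fold changes on this scale understate changes of low genes. The fit was tested on simulated data with 200 genes changed.

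The 10 members, the lists of other eicosanoid genes and the 11 marker lists were chosen with earlier results of these data known. Genes named beside the members were, in a comparison, at most the 5 called genes with the largest absolute difference, and for each member the 3 best correlated, except where stated. Alternatives were another pseudocount, no filter, plate or pool in the model, centred samples, no minimum fold, own time points, each replicate left out in small groups, and an exact two-sided rank-sum test over samples. No mouse list but those of T and B cells and mast cells was without a marker over 5 CPM (median); in cultures Mbp, Pecam1, Flt1, Col1a1, S100a4 and Mrc1 passed among markers of oligodendrocytes, endothelial cells, fibroblasts, monocytes and perivascular macrophages, and none did for astrocytes, neurons, neutrophils, mast cells or T and B cells.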

Additional observations from a re-analysis of the deposited data

Results flagged for a closer look

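In groups of 4 to 10 samples, 123 combinations of a member and a group were examined for a sample far from the others, and 14 had one, where chance gives about 1 in 20. Among cultures with PGE2, Alox5 was at 0 CPM in 1 culture of 24 h with the next at 12.2 CPM, and Alox5ap was at 491 CPM in 1 culture of 72 h with the next at 168 CPM. A single culture of LPS_hi at 4 h had Ptger4 at 1.05 CPM (next 32.7). P3C had Hpgds at 0.918 CPM in 1 culture at 24 h (next 12.3) and Tbxas1 at 6.51 CPM in 1 culture at 72 h (next 19.1). CCL7 at 4 h had Tbxas1 at 25.8 CPM in 1 culture (next 46.1).

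In the mixtures at 72 h, culture 7 of P3C with PGE2 was low for both Alox5 (3.77 CPM, next 14.8) and Tbxas1 (3.14 CPM, next 17.8). Culture 7 of TNFa, P3C and PGE2 was low for both Ptges (71.8 CPM, next 161) and Ptger2 (0.447 CPM, next 12.2), and culture 5 of that group was high for Hpgds (189 CPM, next 31.7). With TNFa and P3C, Ptges was at 11.3 CPM in culture 7 (next 97.4) and Alox5 at 0 CPM in culture 6 (next 10.3). Among PBS mice, Alox5ap was at 292 CPM in 1 mouse (next 235).

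Effects that differed between groups by a test of the difference were those of PGE2 with against without P3C, at −5.54 for Ptgs2, 3.50 for Ptger2 and 2.33 for Alox5ap on the log2 scale, and that of LPS_hi at 72 h against 24 h, at 1.47 for Alox5ap.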

How the results depend on the processing

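Of 147 alternative counts of called members over 18 results, 121 lay within 1.5 times the main count, 26 did not, and no called member changed sign. Moved counts were as follows, and their causes were not tested. IL4: 1 with plate and 1 with pool (3 in the report). PGE2 at 72 h: 0 with plate, own time points, the plates of both groups or the rank-sum test, and 2 with pseudocount 0.5, no minimum fold or centred samples (1). P3C with PGE2: 0 by rank sum (2). TNFa with PGE2: 2 with pool, 3 with own time points, 1 on the TNFa plate, 0 by rank sum, and 3 to 5 with a culture left out (5). TNFa, P3C and PGE2: 4 with pool, 1 with own time points, 0 by rank sum (2). In the comparisons that add PGE2 to P3C, to TNFa or to both, the rank-sum test called 0 of all genes too. Ptges with TNFa and PGE2, whose ranges were far apart, had p = 0.0121 by that test (adjusted p = 0.151). That is the smallest p it can give for 3 against 8 cultures, so its 0 calls cannot decide there. Ptgs2 and Alox5ap with P3C and PGE2 were likewise at its smallest p. Untreated 72 h against 24 h: 0 with plate or pool, 7 with no minimum fold (4). LPS_hi between times: 3 with plate or pool (1). LPS mice: 0 by rank sum, which 4 against 4 cannot pass. Aging: 0 in each series (1). The plates of both PGE2 groups, the TNFa plate and centring were chosen after seeing the data. Centring moved the higher share of all calls from 32.5% to 50.1% (LPS_hi 24 h), 27.5% to 46.0% (LPS_lo), 16% to 50.5% (P3C), 75.9% to 63.6% (IL4), 80.7% to 60.5% (PGE2 24 h), 22.5% to 43.1% (LPS_hi 72 h), 20.4% to 58.5% (4 h), 27.3% to 46.7% (P3C with PGE2), 55.2% to 34.8% (TNFa with PGE2), 15% to 26.7% (untreated) and 41.5% to 63.9% (LPS mice). No paired analysis was possible because no replicate numbers pair the samples. The shallowest cultures, where a read is worth up to 0.997 CPM, cannot resolve levels under that.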

Other observations

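A single culture labelled LPS_hi carried the dose 0.00001 µg/µl at 72 h and entered no comparison. It had Ptgs2 at 12.3 CPM, Ptges at 97.4 CPM, Ptgs1 at 27.4 CPM and Alox5ap at 431 CPM, with Alox5 and Ltc4s at 0.

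Some 4 h agents without LPS had no comparison in the report. ATP (n = 5) had Ptgs2 at 10.2, 17.1, 2.95, 58.0 and 1.85 CPM and Ptges at 62.5, 27.5, 36.4, 16.4 and 19.2 CPM in the same order. Norepinephrine had Ptgs2 at 0 to 30.5 CPM (median 3.62) and Ptges at 1.78 to 39.2 CPM (median 26.2). Nicotine had Ptgs2 at 0 to 10.8 CPM (median 0.687) and Ptger2 at 14.9 to 40.8 CPM (median 22.7).

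In the LPS mice, 5 of 6 tested genes that respond to cyclic AMP were called higher (Crem, Nr4a1, Nr4a3, Pde4b and Per1, named after their values were seen), against 19.8% of all genes. In cultures LPS_hi called 2 of 8 such genes higher and 2 lower at 4 h (25.5% of all genes), and 1 higher and 2 lower at 24 h (16.2%). Per1, higher in the mice (2.78), was lower in the cultures at 4 h (−3.61).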
